A study of Homo sapiens with 6 samples.

Results

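TP63, GATA3, ESR1, FOXA1, ELF3, ELF5, EHF, GRHL2, SOX9 and RUNX1 encode transcription factors that set or maintain the lineages of the mammary epithelium. They were taken from the count table by gene name, 10 of its 58735 genes, and were followed in MCF10A cells after knockdown of DAB2IP, a RasGAP. MCF10A is a nonmalignant human breast epithelial line, cultured here in both groups with horse serum, insulin, EGF, cholera toxin and hydrocortisone. The siControl group (genotype label WT) received a nontargeting siRNA pool and the siDAB2IP group (genotype label DAB2IP knockdown) received 1 siRNA pool against DAB2IP, and 3 libraries of each were made from RNA collected 48 hours after transfection. Whether the 3 libraries of a group came from separate cultures is not stated, so p-values measure the spread between these libraries. Because 1 siRNA pool was used, effects of DAB2IP loss and of the pool on other transcripts cannot be told apart.

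The mammary duct has an outer basal layer of myoepithelial cells and an inner layer of luminal cells. TP63 specifies the basal layer, whereas GATA3, FOXA1 and the estrogen receptor ESR1 act together in hormone-sensing luminal cells, where FOXA1 opens chromatin for the receptor. The epithelial ETS factors ELF3, ELF5 and EHF act in luminal and secretory programs, GRHL2 maintains genes of epithelial junctions, SOX9 marks progenitors and RUNX1 acts in both layers.

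Each library held 16353783 to 21916062 counts, and a count of 0 allowed up to 0.137 to 0.183 CPM (3 counts per library, counting error only). Values in CPM are depth-normalized counts after TMM scaling, and p-values are from the quasi-likelihood test of edgeR, adjusted by the Benjamini-Hochberg method over 15430 genes that passed its filter. An adjusted p under 0.05 was the threshold for a gene that rose or fell. DAB2IP itself was at 103, 94.2 and 77.4 CPM in the siControl libraries and at 27.5, 25.6 and 22.4 CPM in the siDAB2IP libraries, so the targeted gene followed the labels. Genes of the basal keratins KRT5 (3532 ± 378 CPM in siControl) and KRT14 (2186 ± 308 CPM) were abundant. KRT8 (142 ± 7.31 CPM) and KRT18 (146 ± 2.64 CPM) of simple epithelia were also counted, whereas KRT19 had only 1 to 6 counts per library. The progesterone receptor gene PGR and ANKRD30A, another luminal marker, had no counts in any library. The luminal markers MUC1 (561 ± 76.1 CPM) and EPCAM (97.0 ± 23.0 CPM) were counted in siControl too. Of further basal and myoepithelial markers, ITGB4, ITGA6, KRT17 and CDH3 were at 1838, 1084, 813 and 578 CPM in siControl, whereas ACTA2 was at 6.17 ± 1.19 CPM.

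7 of the 10 factors passed the filter on low counts, and these were TP63, GATA3, FOXA1, ELF3, EHF, SOX9 and RUNX1. EHF fell and FOXA1 rose. That is 1 rise and 1 fall among 7 factors, beside 6.55% of all genes tested that rose and 7.65% that fell, so the count lies within 1 gene of the background in each direction. Libraries with the same replicate number deviated together, and with this number as a block FOXA1 rose and EHF, TP63 and GATA3 fell, beside 9.59% of all genes that rose and 11.4% that fell. SOX9, RUNX1 and ELF3 passed the threshold in neither fit. The groups did not overlap in 5535 of the 15430 genes tested, the background for each tested gene below whose groups did not overlap. ESR1, ELF5 and GRHL2 did not pass the filter, and no such share was computed for genes with counts that low. These are bulk libraries, in which fewer cells of a type and less RNA per cell cannot be told apart.

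Promoter sequence is shown for the factors whose transcripts changed past the threshold, EHF and FOXA1. A short site of ELF3, an epithelial ETS factor like EHF, was added for its NF-kB match. The windows are the 250 bases before a RefSeq transcript start on GRCh38.p14, read 5′ to 3′ on the strand of the gene, and bases that overlap an exon of GENCODE release 29 are left out for EHF and FOXA1. All 250 bases of the ELF3 window overlap such an exon, so 30 bases of exonic sequence are shown for ELF3. Capitals mark matches to 9 short motifs that were searched on both strands. They were TGTGGT for RUNX factors, AGATAA for GATA factors, TGTTTAC for FOXA factors, ACAAAG for SOX factors and GGGNNTTCC for NF-kB, and, without a match in the windows printed, TGANTCA for AP-1, CCGGAA for ETS factors, ACCGGTT for grainyhead-like factors and TATAAA for the TATA box. No marked matches overlap each other. EHF has a pair of such windows, on the plus strand at chr11:34624007-34624256 and chr11:34632316-34632463, and FOXA1 has 1 window, on the minus strand at chr14:37595349-37595499. GENCODE lists 12 distinct starts for EHF, from 34621093 to 34642627, and both EHF windows lie past the first. No GENCODE transcript of EHF holds the bases just after the upstream EHF start. FOXA1 has 5 distinct starts. Which starts the counted transcripts used was not measured.
EHF upstream start: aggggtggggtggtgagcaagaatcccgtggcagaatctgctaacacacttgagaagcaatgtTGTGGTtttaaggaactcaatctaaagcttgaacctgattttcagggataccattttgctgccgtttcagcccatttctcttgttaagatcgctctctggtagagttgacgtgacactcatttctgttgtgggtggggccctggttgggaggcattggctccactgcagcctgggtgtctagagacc
EHF downstream start: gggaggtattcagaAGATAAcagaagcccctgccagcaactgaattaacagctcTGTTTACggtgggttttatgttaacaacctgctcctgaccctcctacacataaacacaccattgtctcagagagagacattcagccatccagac
FOXA1: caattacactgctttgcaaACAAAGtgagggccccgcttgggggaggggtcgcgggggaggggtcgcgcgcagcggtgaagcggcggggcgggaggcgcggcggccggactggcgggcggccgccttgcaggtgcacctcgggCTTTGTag
ELF3 site, chr1:202010489-202010518, plus strand: ctaaaggccaGGAAATCCCctccatccaat

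The upstream EHF window holds a RUNX match 187 bases before its start, and 11% of 35116 promoter windows of this length hold at least 1. The downstream window holds a GATA match at 236 bases and a FOXA match at 196 bases before its start, found in 9.17% and 2.98% of all windows, and a SOX match at 51 bases in the part left out. The FOXA1 window holds 3 SOX matches, at 231, 107 and 89 bases, of which the printed stretch includes the pair farthest from the start, and 13.7% of all windows hold at least 1. The 30 bases of ELF3 hold an NF-kB match, 88 bases before the start, as do 5.78% of all windows. They were picked for this match, since DAB2IP is known as a brake on NF-kB, although ELF3 did not pass the threshold. Among the 19 windows of 8 factors that were searched, no other holds this match. The EHF and FOXA1 windows hold no match of this motif. The part of the ELF3 window that is not printed holds a TATAAA match 34 bases before the start. ELF3 has 10 distinct starts in GENCODE, and its window lies past the first of them, at 202007945. All of the matches given here are of letters only.

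The levels of the factors, compared per gene length as FPKM, spanned a wide range. In siControl, EHF was highest at 16.6 ± 2.24 FPKM (SD, n = 3), above each value of the next factor. TP63 (7.87 ± 1.13 FPKM) and SOX9 (6.87 ± 0.374 FPKM) followed and overlapped, then GATA3 (5.79 ± 0.648 FPKM), ELF3 (4.82 ± 2.38 FPKM) and RUNX1 (4.16 ± 0.287 FPKM), each overlapping its neighbor. FOXA1, at 1.16 ± 0.377 FPKM, lay below all of these and above ESR1 (0.0178 ± 0.00840 FPKM) and ELF5 (0.0166 ± 0.00819 FPKM), which overlapped. GRHL2 was listed at 0.

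In siDAB2IP, EHF no longer stood apart at the top. SOX9 (6.62 ± 0.364 FPKM), EHF (6.48 ± 0.103 FPKM), TP63 (5.30 ± 1.34 FPKM), GATA3 (4.21 ± 0.452 FPKM), ELF3 (3.73 ± 1.36 FPKM) and RUNX1 (3.68 ± 0.187 FPKM) formed an order in which each overlapped the next. FOXA1, at 2.40 ± 0.546 FPKM, stayed below RUNX1 in every library. ESR1 was at 0.0349 ± 0.00761 FPKM, and ELF5 and GRHL2 were listed at 0.

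**Figure D1:**
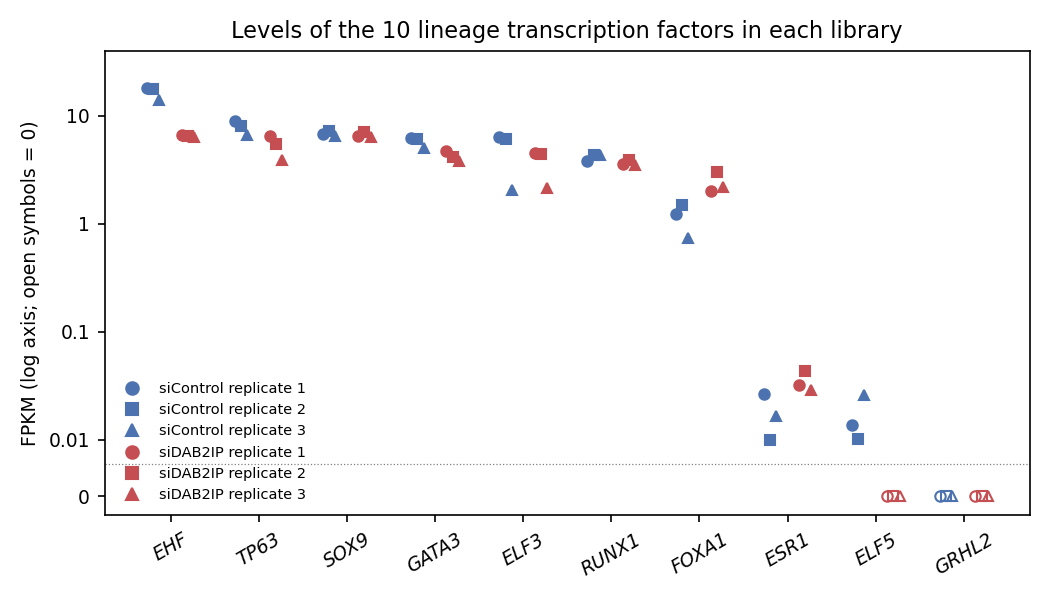
FPKM of the 10 lineage transcription factors (log axis, open symbols at the bottom for 0), with 1 symbol for each library, blue for siControl and red for siDAB2IP, ordered by the siControl mean. EHF lies above the other factors in siControl at 16.6 FPKM and among them in siDAB2IP at 6.48 FPKM, and ESR1, ELF5 and GRHL2 lie far below FOXA1.

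EHF (ENSG00000135373), an epithelial ETS factor, lies on the plus strand of chromosome 11 from 34621093 to 34661057. Its level was 79.4, 78.9 and 62.1 CPM in siControl replicates 1, 2 and 3, and 29.2, 28.7 and 28.4 CPM in siDAB2IP replicates 1, 2 and 3. Every siDAB2IP library was below every siControl library, and the siDAB2IP values lay close together. On average EHF fell from 73.5 ± 9.84 to 28.7 ± 0.409 CPM (SD, 3 libraries per group), or by 1.35 on the log2 scale (log2 fold change −1.35, SE 0.12, 95% interval −1.62 to −1.09, edgeR adjusted p = 2.27e-04). EHF was thus 2.56-fold higher in siControl. Without each library in turn the log2 fold change lay between −1.48 and −1.31 and the call was made in all 6 fits.

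The protein-coding genes whose pattern over the 6 libraries was most like that of EHF were SGK1, a kinase gene induced by glucocorticoid and serum, and LIPA, which encodes lysosomal acid lipase. Likeness was the mean absolute difference in log2 CPM, each relative to its siControl mean, among 12275 genes. It was 0.0765 for SGK1, which went from 62.9 ± 7.52 to 24.0 ± 2.73 CPM, and 0.0992 for LIPA, which went from 166 ± 12.9 to 64.7 ± 0.801 CPM.

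FOXA1 (ENSG00000129514), the pioneer factor of luminal cells, lies on the minus strand of chromosome 14 from 37589984 to 37596059. Its level was 4.98, 5.94 and 2.99 CPM in siControl replicates 1, 2 and 3, from 80, 128 and 51 counts. In siDAB2IP replicates 1, 2 and 3 it was 8.07, 12.2 and 8.75 CPM, from 143, 220 and 151 counts. The groups did not overlap, with siControl replicate 3 lowest and siDAB2IP replicate 2 highest. FOXA1 rose on average from 4.64 ± 1.50 to 9.67 ± 2.21 CPM (SD, 3 libraries per group), which is 2.07-fold (log2 fold change 1.05, SE 0.26, 95% interval 0.47 to 1.64, edgeR adjusted p = 0.0274).

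This call was lost in several other fits. Leaving out siControl replicate 1 gave an adjusted p of 0.0781, leaving out siControl replicate 3 gave 0.0804 and leaving out siDAB2IP replicate 2 gave 0.0802, while limma on log2(FPKM + 1) gave 0.0507. The genes with the pattern most like FOXA1 were ANAPC10, of the anaphase-promoting complex, and DHRS3, a retinal reductase, each with a mean difference of 0.150. DHRS3 rose from 120 ± 42.6 to 241 ± 24.1 CPM (edgeR adjusted p = 0.0195), and ANAPC10 was at 1.10 ± 0.391 and 1.99 ± 0.482 CPM (edgeR adjusted p = 0.14). TTC6, which overlaps FOXA1 on the opposite strand, had 1 to 11 counts.

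TP63 (ENSG00000073282), the basal lineage factor, lies on the plus strand of chromosome 3 from 189631416 to 189897279. Its level was 66.9, 60.5 and 50.1 CPM in siControl replicates 1, 2 and 3 and 49.4, 41.0 and 29.4 CPM in siDAB2IP replicates 1, 2 and 3. Replicate 3 was lowest in both groups, and the groups were separated only by the gap between 50.1 and 49.4 CPM. The means were 59.2 ± 8.50 and 39.9 ± 10.0 CPM (SD, 3 libraries per group), and the log2 fold change of −0.57 (SE 0.18, 95% interval −0.96 to −0.17) missed the threshold (edgeR adjusted p = 0.0615).

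With the replicate block TP63 fell (log2 fold change −0.59, edgeR adjusted p = 0.00456). The differences within replicates 1, 2 and 3 were −0.44, −0.56 and −0.77 in log2. Without siDAB2IP replicate 1 and with no block, TP63 was also past the threshold (−0.75, edgeR adjusted p = 0.0295). TP63 makes long (TA) and short (ΔN) forms from separate promoters, and the counts are sums over its 14 annotated transcripts, with 8 distinct starts across 158385 bases, so the forms were not measured separately.

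GATA3 (ENSG00000107485), a factor required for luminal cells, lies on the plus strand of chromosome 10 from 8045378 to 8075203. It was at 21.6, 21.1 and 17.5 CPM in siControl replicates 1, 2 and 3 and at 16.2, 14.5 and 13.2 CPM in siDAB2IP replicates 1, 2 and 3. The groups did not overlap. Mean levels were 20.1 ± 2.23 and 14.6 ± 1.55 CPM (SD, 3 libraries per group), and the log2 fold change of −0.45 (SE 0.14, 95% interval −0.77 to −0.14) missed the threshold (edgeR adjusted p = 0.0616). With the replicate block GATA3 fell (−0.45, edgeR adjusted p = 0.0282), with differences of −0.41, −0.54 and −0.41 within the replicates. GATA3-AS1, on the opposite strand, had at most 2 counts in a library.

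**Figure D2:**
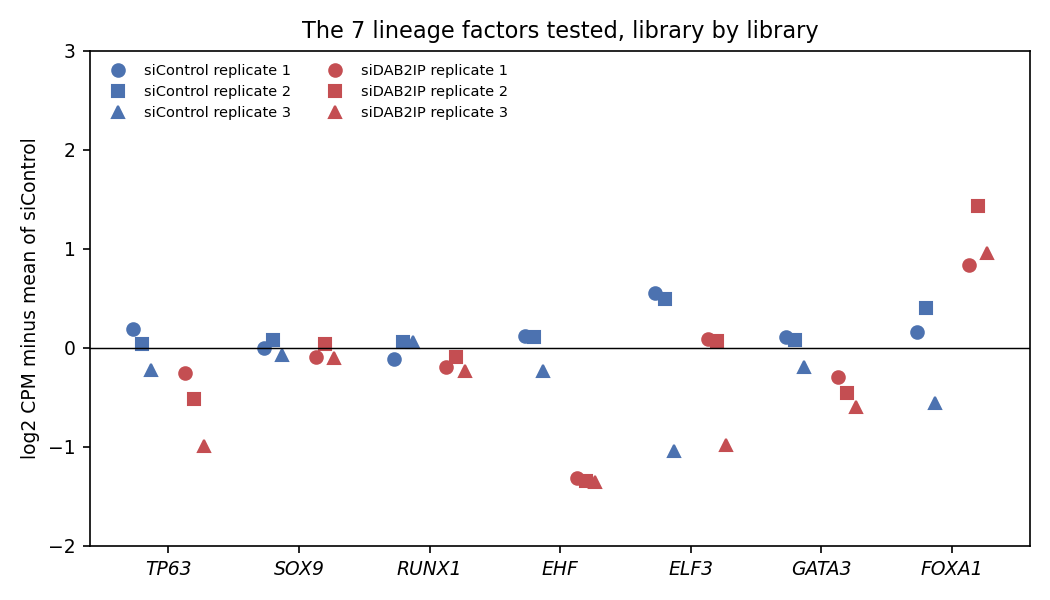
Log2 CPM of the 7 factors tested, relative to the siControl mean of each gene, with 1 symbol for each library. The siDAB2IP libraries of EHF lie together near the log2 fold change of −1.35, those of FOXA1 lie above 0 in all 3, and replicate 3 of ELF3 is low in both groups.

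ELF3 (ENSG00000163435), an ETS factor of differentiated epithelia, lies on the plus strand of chromosome 1 from 202007945 to 202017188. Its level was 45.9, 43.8 and 15.0 CPM in siControl replicates 1, 2 and 3 and 33.1, 32.6 and 15.8 CPM in siDAB2IP replicates 1, 2 and 3. Replicate 3 was far below the others in both groups, so the groups overlapped. The log2 fold change was −0.36 (SE 0.38, 95% interval −1.22 to 0.49, edgeR adjusted p = 0.571), and it was −0.29 with the block (edgeR adjusted p = 0.139). Without siControl replicate 3 it was −0.74 and without siDAB2IP replicate 3 it was −0.09, neither past the threshold. ELF3-AS1 on the opposite strand had 120 to 244 counts, and since the strand setting of the counting is not stated, reads of the 2 genes cannot be told apart where they overlap.

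SOX9 (ENSG00000125398), a factor of mammary progenitors on chromosome 17 from 72121020 to 72126420, was at 27.2, 28.7 and 25.9 CPM in siControl replicates 1, 2 and 3 and at 25.6, 28.0 and 25.4 CPM in siDAB2IP replicates 1, 2 and 3. The groups overlapped and the log2 fold change was −0.05 (SE 0.11, 95% interval −0.30 to 0.20, edgeR adjusted p = 0.805).

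RUNX1 (ENSG00000159216), on chromosome 21 from 34787801 to 36004667, was at 60.2, 67.9 and 67.8 CPM in siControl replicates 1, 2 and 3 and at 56.9, 61.2 and 55.5 CPM in siDAB2IP replicates 1, 2 and 3. The values overlapped, since siControl replicate 1 lay below siDAB2IP replicate 2. The log2 fold change was −0.17 (SE 0.096, 95% interval −0.39 to 0.04, edgeR adjusted p = 0.259). For both SOX9 and RUNX1 the interval excludes a fold change as large as that of EHF or FOXA1. A two-sided exact permutation test of the CPM of the 7 factors tested gave p = 0.1, the smallest that 3 libraries against 3 allow, for TP63, GATA3, FOXA1 and EHF, and 0.2 for RUNX1, 0.5 for SOX9 and 0.6 for ELF3.

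**Figure D3:**
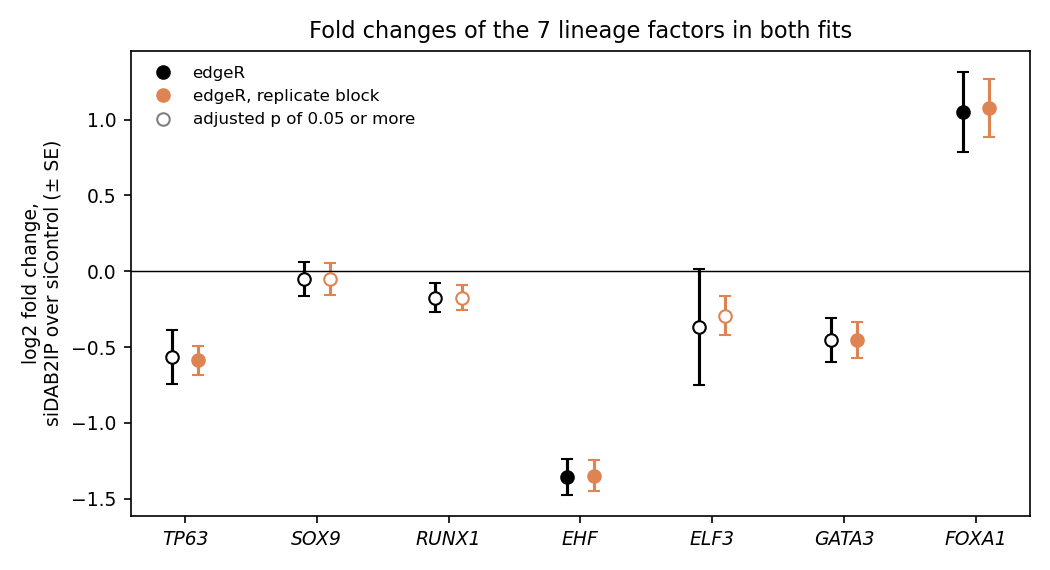
Log2 fold change of siDAB2IP over siControl with its SE for the 7 factors tested, from edgeR without (black) and with (orange) the replicate block. Filled symbols mark an adjusted p under 0.05, which EHF and FOXA1 reached in both fits and TP63 (−0.59) and GATA3 (−0.45) with the block.

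ESR1, the estrogen receptor gene, on chromosome 6 from 151656691 to 152129619, had 6, 3 and 4 counts in siControl replicates 1, 2 and 3 and 8, 11 and 7 counts in siDAB2IP replicates 1, 2 and 3. The means were 0.249 ± 0.118 and 0.489 ± 0.107 CPM, near the limit that a count of 0 allows, and the groups did not overlap (two-sided exact permutation test, p = 0.1, the smallest possible). In a fit with no filter on low counts the log2 fold change was 0.98, with a 95% interval of −0.43 to 2.39 (edgeR adjusted p = 0.528), so this depth does not settle whether ESR1 differed. ESR1 overlaps SYNE1 on the opposite strand, which had 83 to 161 counts. ELF5, the ETS factor of secretory alveolar cells on chromosome 11 from 34478793 to 34513805, had 1, 1 and 2 counts in siControl and 0 in each siDAB2IP library. All of these are at or under this limit, although the groups did not overlap (two-sided exact permutation test, p = 0.1). In the fit with no filter the log2 fold change of ELF5 was −3.55, with a 95% interval of −7.75 to 0.66 (edgeR adjusted p = 0.399). Whether ELF5 differed is thus not settled either.

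GRHL2, on chromosome 8 from 101492432 to 101669726, had 0 counts in all 6 libraries. It lies in a run of 19 consecutive genes of the table, from 101261541 to 102154725, that are at 0 in all 6 libraries, and the other protein-coding gene of the run is NCALD. On either side of the run, the nearest protein-coding genes with a count in any library were ZNF706 and RRM2B. ZNF706 had 1156 to 1923 counts and RRM2B had 1646 to 2483 counts. GRHL2 is known to maintain CDH1 (E-cadherin) and ESRP1 (a splicing factor of epithelia), and these were at 278 ± 18.7 and 46.5 ± 3.66 CPM in siControl and at 297 ± 54.4 and 40.4 ± 3.07 CPM in siDAB2IP. Of 19951 protein-coding genes, 3470 were at 0 in all 6 libraries. Why the run is at 0 was not tested.

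**Figure D4:**
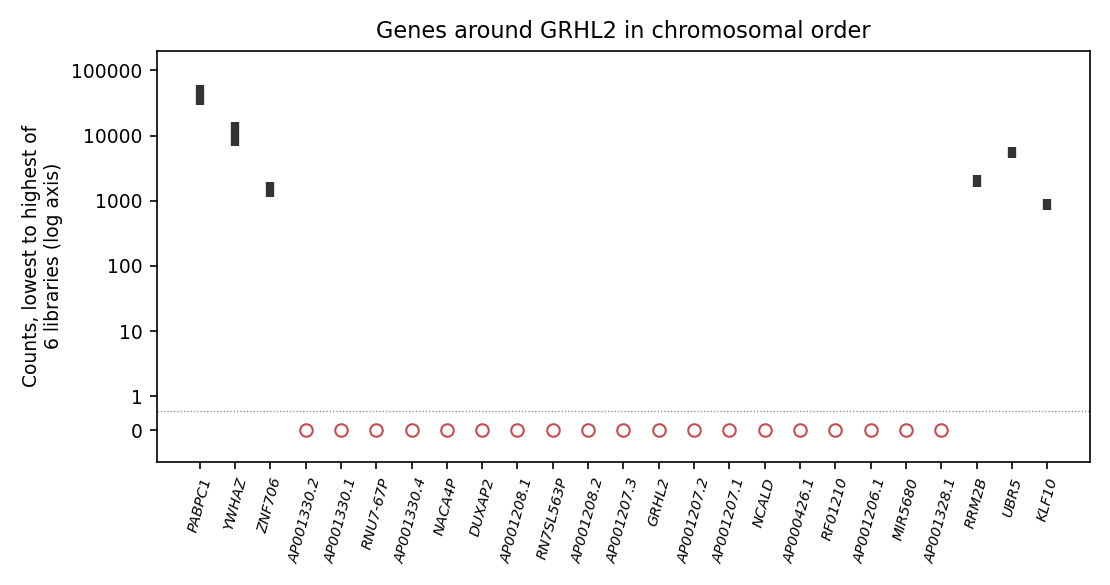
Counts of GRHL2 and of genes around it in chromosomal order, with bars from the lowest to the highest of the 6 libraries (log axis) and open circles for genes at 0 in all 6. The 19 genes of the run, GRHL2 among them, are at 0. Drawn on either side are the nearest 3 protein-coding genes picked for having a count in any library, and other genes there are left out. The genes so picked have at least 712 counts in every library.

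Relatives of these factors and other mammary transcription factors were described as a list of 60 genes. 43 were tested, of which 1 rose (2.33%) and 8 fell (18.6%), beside 6.55% and 7.65% of all genes. The median log2 fold change was −0.19 beside 0.0090 for all genes tested. With the block 14 were past the threshold in place of 9, where 9.59% of all genes rose and 11.4% fell. GRHL3, a paralog of GRHL2, rose from 21.8 ± 2.59 to 33.0 ± 1.72 CPM (log2 fold change 0.59, edgeR adjusted p = 0.0132). TP73, a paralog of TP63, fell from 9.47 ± 2.74 to 3.47 ± 1.55 CPM (−1.45, edgeR adjusted p = 0.0163). ELF2, an ETS factor made in many cell types, fell from 23.8 ± 1.70 to 16.2 ± 2.85 CPM (−0.55, edgeR adjusted p = 0.0383). NFIB (−0.77), TFAP2C (−0.69) and CEBPD (−0.75), factors of mammary development, also fell.

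The calls of GRHL3 and TP73 were lost without siControl replicate 1 or 2 (adjusted p up to 0.0700 and 0.0621), that of TFAP2C without siControl replicate 3 (0.0618), and those of ELF2 and CEBPD without any 1 of the siControl replicates or without siDAB2IP replicate 2 (up to 0.142 and 0.150). Paralogs short of the threshold included GATA2, GATA6, ESR2, ELF1, ELF4, GRHL1, SOX4 and RUNX2. RUNX2, a paralog of RUNX1, was at 5.10 ± 1.86 and 9.37 ± 3.72 CPM (log2 fold change 0.87, edgeR adjusted p = 0.0949), and it rose with the block (0.86, edgeR adjusted p = 0.0124). GRHL1 was at 7.24 ± 0.122 and 7.64 ± 1.44 CPM.

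Genes that p63 is known to regulate were described next to TP63. Of 36 listed, 33 were tested, and 3 rose (9.09%) and 10 fell (30.3%), beside 6.55% and 7.65% of all genes tested, and the median log2 fold change was −0.09. Among those that fell were KRT14 (−1.52, from 2186 ± 308 to 765 ± 285 CPM) and KRT5 (−0.97, from 3532 ± 378 to 1800 ± 40.9 CPM), the keratins of the basal layer, PERP (−1.20), a desmosomal gene of stratified epithelia, and DSP (−0.89), desmoplakin. LAMB3 (1.02, from 856 ± 24.0 to 1733 ± 170 CPM), a laminin chain of the basement membrane, and HAS3 (0.82), a hyaluronan synthase, rose. The calls of KRT14, KRT5, PERP, DSP and LAMB3 held in all 6 fits with a library left out. HAS3 lost its call without any 1 of the siControl replicates or without siDAB2IP replicate 2 (adjusted p up to 0.106).

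The list of basal and myoepithelial markers shares genes with the p63 list, KRT5, KRT14 and LAMB3 among them. 33 of 35 were tested, 4 rose (12.1%) and 6 fell (18.2%), beside 6.55% and 7.65% of all genes, and the median was −0.04. VIM (−0.98) and KRT6A (−0.72) fell in all 6 fits with a library left out. MYLK (1.20), the myosin kinase of contractile cells, rose, as did SPARC (0.89), but MYLK was not called without any 1 siControl replicate (adjusted p up to 0.0816) and SPARC not without siControl replicate 1 or 2 (up to 0.108).

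Luminal markers were described next to GATA3 and FOXA1. Of 34 listed, 20 were tested and 4 were at 0 in all libraries, PGR among them. 3 rose (15%) and 4 fell (20%), beside 6.55% and 7.65% of all genes, with a median of −0.07. CLDN4, a tight junction claudin, rose from 26.1 ± 5.33 to 68.5 ± 10.1 CPM (1.39, edgeR adjusted p = 0.00124), and CD24, a surface marker of luminal cells, rose from 103 ± 12.6 to 174 ± 23.7 CPM (0.75). ALDH1A3, a retinaldehyde dehydrogenase gene, rose (0.73), a call lost without siDAB2IP replicate 1 or 2 or siControl replicate 2 or 3 (adjusted p up to 0.105). LTF, the secreted lactoferrin, fell from 19.5 ± 7.23 to 0.206 ± 0.267 CPM (−6.51), and WFDC2 (−2.67), PRLR (−1.70), the prolactin receptor, and MUC1 (−0.82), a mucin of the luminal surface, also fell, each in all 6 fits with a library left out. LTF had 9, 2 and 0 counts in siDAB2IP replicates 1, 2 and 3, so the size of its fall is uncertain, at −8.26 in log2 without siDAB2IP replicate 1 and −5.95 without siDAB2IP replicate 3. The luminal keratins KRT8 (0.09) and KRT18 (0.02) did not pass the threshold, and KRT19, at 1 to 6 counts, was not tested.

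Known target genes of the estrogen receptor numbered 35, with 27 tested, 2 that rose (7.41%) and 7 that fell (25.9%), beside 6.55% and 7.65% of all genes, and a median of −0.09. CCND1 (1.14), cyclin D1, rose and SERPINA1 (−1.23) fell in all 6 fits with a library left out. CTSD (0.52) rose, and MYBL1 (−1.08) and KCNK5 (−1.01) fell, but each lost its call without siControl replicate 2 or 3 and in a further fit (adjusted p up to 0.0873, 0.129 and 0.0888), without siControl replicate 1 for CTSD and KCNK5 and siDAB2IP replicate 1 for MYBL1. TFAP2C is also on this list and on that of p63.

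Of 36 genes that grainyhead-like factors are known to regulate, 35 were tested. 4 rose and 4 fell (11.4% each, beside 6.55% and 7.65% of all genes), with a median of −0.03. With the block 13 were past the threshold, where 9.59% of all genes rose and 11.4% fell. CLDN4 and PRSS8 (0.84), a membrane serine protease, rose and DSP fell in all 6 fits with a library left out. CGN (0.79) and RHOD (0.42) rose and MAL2 (−1.17), SPINT2 (−0.57) and PKP2 (−0.56) fell with calls that depended on the libraries. Their adjusted p reached 0.121, 0.120, 0.0729, 0.112 and 0.140. siControl replicates 2 and 3 decided each of these 5 calls, siControl replicate 1 those of RHOD, SPINT2 and PKP2, siDAB2IP replicate 1 that of CGN, and siDAB2IP replicate 2 those of RHOD and PKP2.

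**Figure D5:**
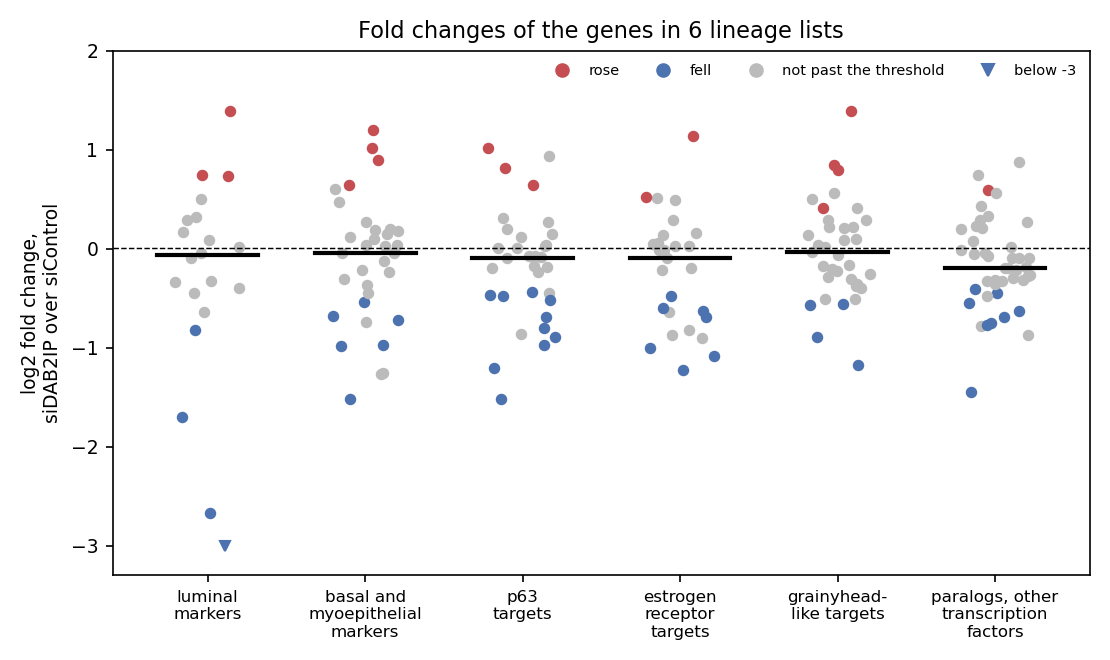
Log2 fold changes of the genes tested in 6 lists of lineage markers, target genes and transcription factors, with a bar at the median of each list, a dashed line at the median of all genes tested (0.0090) and a triangle for LTF, which lies below the axis at −6.51. Each list holds genes that rose and genes that fell, and its median lies between −0.19 and −0.03.

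The number of list genes past the threshold moved when a library of either group was left out. Without siControl replicate 1, 2 and 3 it was 6, 5 and 10 in place of 10 for the basal markers, 9, 7 and 8 in place of 13 for the p63 targets, 5, 3 and 4 in place of 9 for the estrogen receptor targets, 6, 3 and 3 in place of 8 for the grainyhead-like targets, and 4, 3 and 5 in place of 9 for the transcription factors. Over all genes, 434, 264 and 398 rose and 752, 459 and 650 fell in these fits, in place of 1011 and 1181. Without siDAB2IP replicate 1, 2 and 3, 658, 707 and 1172 of all genes rose and 856, 1019 and 1352 fell. In these 3 fits the basal markers numbered 11, 8 and 14, and the p63 targets 12, 9 and 14. The estrogen receptor targets numbered 7, 8 and 11 there, the grainyhead-like targets 7, 6 and 11 and the transcription factors 8, 6 and 11.

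Markers of other cell types and of the cell cycle were measured beside these values. Of 20 cell cycle genes 15 fell (75%, beside 7.65% of all genes) and none rose, at a median of −1.18 in log2, and their summed level was 1228 to 1757 CPM in siControl and 664, 950 and 273 CPM in siDAB2IP replicates 1, 2 and 3. siDAB2IP replicate 3, the library with the lowest sum, also had the lowest CPM of TP63, GATA3, EHF, SOX9 and RUNX1 among the 6 libraries. Without it EHF (log2 fold change −1.34) and FOXA1 (1.12) were past the threshold and TP63 (−0.39) and GATA3 (−0.38) were not, as with all 6 libraries. The summed level of 7 fibroblast markers was 163 to 293 CPM in siControl and 146 to 206 CPM in siDAB2IP, mostly from DCN, with COL1A2 and COL3A1 at 0 to 3 counts, and COL1A1 rose. The sum of 5 endothelial markers was 23.7 to 34.0 and 15.8 to 17.3 CPM, with VWF at 17 to 39 counts, and KDR fell. The sum of 6 leukocyte markers was 36.2 to 70.1 and 49.7 to 77.3 CPM, almost all from CD14, with PTPRC at 0 to 4 counts and CD3E at 0. The part of the cell cycle genes and of these markers in the levels of the lineage factors was not tested.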

How the data were processed

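RNA of 6 MCF10A libraries was sequenced by Novogene. The submitters' processing notes name hg38, STAR 2.6.1d, featureCounts 1.5.0-p3, DESeq2 1.20.0 and edgeR 3.24.3, without roles or the strand setting. The authors deposited whole-number counts per gene without normalization and FPKM values, which the authors scaled by gene length and library total. Coordinates are those of the tables. The 10 factors and the gene lists were chosen with earlier results of these data known.

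The count table was fitted with edgeR 4.0.16 under R 4.3.3 (filterByExpr, TMM, glmQLFit, glmQLFTest). FPKM served for levels between genes and for limma 3.58.1. Alternatives were DESeq2 1.42.0, other scalings and filters, stricter thresholds, a replicate block, limma and leaving out each library. The steps were tested on simulated data.

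Named from the lists were up to 4 genes per direction with the largest called changes and a mean of at least 1 CPM, besides the tested paralogs, and some of these genes are not reported here. KRT8, KRT18, KRT19, EPCAM, ANKRD30A, KRT17, ITGA6, ITGB4, CDH3, ACTA2, CDH1, ESRP1, PGR, DAB2IP and markers of other cells were named as checks. They were chosen after their values were seen except DAB2IP.

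The labels number the replicates 1 to 3 in both groups, and the sample descriptions give equal numbers the same first letter (A, B or C). Deviations from the group means correlated across genes at 0.26, 0.15 and 0.25 for equal numbers and at −0.28 to 0.02 for others. Equal numbers were therefore treated as pairs in the block fit. Deviations cancel out within a group, so positive values for equal numbers lower the others. The pairs were chosen on the libraries that the block fit uses, so these correlations are no separate support for it. What a number or letter stands for is not stated.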

Additional observations from a re-analysis of the deposited data

How the results depend on the processing

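EHF fell in all alternatives and with each library left out. FOXA1 rose on the count scale except with an adjusted p under 0.01 and without siControl replicate 1 or 3 or siDAB2IP replicate 2. It missed the threshold in the 3 fits of limma on FPKM, where no lineage factor rose (0), with an adjusted p of 0.0507 with a pseudocount of 1, 0.0581 with 0.1 and 0.153 over all genes with a count. DESeq2 put 2 of 9 factors, EHF and TP63, among those that fell, beside 1374 of 29567 genes. A minimum of 10 counts in every library put the same 2 of 7 there, beside 1259 of 14024 genes. TP63 was then barely past the threshold (edgeR adjusted p = 0.04999). No filter on low counts put 3 of 9 there (EHF, TP63 and GATA3), beside 1692 of 29567 genes, with GATA3 near the threshold (edgeR adjusted p = 0.0484). The replicate block put the same 3 of 7 there, beside 1754 of 15430 genes, and changed no other call of a factor. Leaving out a library left 0 to 1 factors that rose and 1 to 2 that fell, beside 264 to 1172 and 459 to 1352 of all genes. Other scalings moved none of the counts of factors. The cause of these differences was not tested, apart from the smaller groups when a library is left out.

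For the basal markers, p63 targets, estrogen receptor targets, grainyhead-like targets and transcription factors, an adjusted p under 0.01 left 5, 6, 2, 3 and 1 genes past the threshold, with 254 genes that rose and 368 that fell over all, and 0 factors that rose. An adjusted p under 0.05 with a change of at least 1 in log2 left 3, 3, 4, 2 and 1 genes, 4 luminal markers, and 236 and 374 genes over all. The replicate block gave 13 grainyhead-like targets and 14 transcription factors, with 1479 genes that rose and 1754 that fell over all. limma on log2(FPKM + 1) gave 5 estrogen receptor and 5 grainyhead-like targets. With a pseudocount of 0.1 it gave 5 and 4, and 659 and 758 genes over all. Over all genes with a count it gave 3 luminal markers, 2 basal markers, 3 p63, 2 estrogen receptor and 1 grainyhead-like targets and 1 transcription factor, and 176 and 202 genes over all. With 1 library left out the counts were 6 to 8 luminal markers, 5 to 14 basal markers, 7 to 14 p63, 3 to 11 estrogen receptor and 3 to 11 grainyhead-like targets and 3 to 11 transcription factors, with 264 to 1172 genes that rose and 459 to 1352 that fell.

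4 paralogs short of the threshold changed sign with a library left out. Over these fits the log2 fold change of ELF4 lay between −0.066 and 0.083, that of GRHL1 between −0.084 and 0.18, that of ELF1 between −0.22 and 0.015 and that of SOX4 between −0.040 and 0.35. At these depths ESR1, ELF5 and GRHL2 are at or near the limit that a count of 0 allows, so differences in them could not be resolved.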
